A study of Rattus norvegicus with 10 samples.

Results

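The genes of cAMP signalling were examined across the 5 groups. They were the adenylyl cyclases that make cAMP, the phosphodiesterases, most of which break it down, and protein kinase A (PKA) with the proteins that anchor it. The Epac proteins and the CREB family with its CRTC coactivators were included too. Members were chosen by gene symbol (Adcy, Pde, Prka and Akap names, with Creb1, Crem, Atf1, Crtc1 to Crtc3, Rapgef3 and Rapgef4; Adcy5, Pde10a and the Pde6 genes were left out by the rule), which gave 54 of 32545 genes in the table. They comprised 9 cyclases, 16 phosphodiesterases, 2 catalytic and 4 regulatory subunits of PKA, 15 anchoring proteins, 2 Epac proteins and 6 genes of the CREB family and its coactivators.

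RNA came from the CA1 region microdissected from hippocampal slices of male Wistar rats aged 5 to 7 weeks, with 2 libraries in each of 5 groups. The SKF group received the dopamine D1/D5 receptor agonist alone, and SKF+Aβ received the agonist with 200 nM amyloid-beta 1-42 oligomers. SKF+Aβ+CSP received in addition 0.36 μg/ml of the empty carbon nanosphere used as vehicle, and SKF+Aβ+CSP‐TTK21 received the nanosphere at 0.36 μg/ml loaded with TTK21, a small molecule that activates the acetyltransferases CBP and p300. CSP‐TTK21 alone had neither SKF nor Aβ. Slices of all groups were stimulated at a basal rate for 30 min and collected 1 h after treatment, and each repeat combined slices of 2 animals. An untreated group was not analysed here, so every level is relative to a treated group.

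D1 and D5 receptors couple to the stimulatory G protein, which activates adenylyl cyclase. The cAMP made there releases the catalytic subunits of PKA from the regulatory subunits, and A-kinase anchoring proteins hold the kinase near its substrates, while phosphodiesterases limit how far and how long the signal spreads. PKA phosphorylates CREB, which binds the cAMP response element and recruits CBP and p300, and this pathway in CA1 is known for its part in the late, transcription-dependent phase of synaptic potentiation.

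The total count per library was between 6753742 and 8473407, and the 54 members took between 0.574 and 0.652% of it. A floor of 3 counts corresponded to between 0.354 and 0.444 CPM (counts scaled by library size), which covers counting error only. Of the 54 members, 51 passed the filter on low counts. The others were Pde4c with 1 to 6 counts per library, Akap3 with 2 to 9, and Akap4 with 1 count in SKF+Aβ+CSP replicate 1 and 0 in the rest. Markers of CA1 and other excitatory neurons (7 of 8 matched) summed to between 2941 and 4228 CPM, with Fibcd1 at 0 in every library. Oligodendrocyte markers (7 of 7) ranged from 11240 CPM in SKF+Aβ replicate 2 to 25760 CPM in SKF+Aβ+CSP‐TTK21 replicate 1. The libraries of SKF, of SKF+Aβ and of SKF+Aβ+CSP‐TTK21 differed within their group. Those of SKF+Aβ+CSP (17770 and 18270 CPM) and of CSP‐TTK21 alone (15600 and 15380) were close. No gene of the 13 lists of cell type markers passed edgeR's adjusted threshold in any comparison, and 2 to 16 of the 67 tested were under an unadjusted p of 0.05. That was 2.99 to 23.9% of them beside 2.18 to 22.8% of all genes, with the widest gap in SKF+Aβ+CSP‐TTK21 compared with SKF+Aβ+CSP (15 markers or 22.4%, beside 8.78%).

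Promoters are shown for the member that was called between groups, Akap11, and for the one member that carried the full cAMP response element, Crem. RefSeq's table for GRCr8 held 53 of the 54 members by symbol and 55 promoters of 42 of them, each reaching from 250 bases before the start to 50 after it. Both strands were searched for the full element TGACGTCA and for its short form TGACG, whose matches include those inside the full element. The full element was present in 2 of the 55 member promoters, both of Crem, and in 1.83% of all 33469 promoters. The short form was present in 17 of 55 member promoters (30.9%) and in 21.2% of all. The promoter of Akap11 (GRCr8 chr15:60365286-60365585, minus strand) held the short form at 3 places on the 2 strands. Promoters 2 (chr17:58984547-58984846, plus strand) and 3 (chr17:58985240-58985539, plus strand) of Crem held the full element at 1 and 2 places. They are printed 5′ to 3′ with the elements in capitals.
Akap11: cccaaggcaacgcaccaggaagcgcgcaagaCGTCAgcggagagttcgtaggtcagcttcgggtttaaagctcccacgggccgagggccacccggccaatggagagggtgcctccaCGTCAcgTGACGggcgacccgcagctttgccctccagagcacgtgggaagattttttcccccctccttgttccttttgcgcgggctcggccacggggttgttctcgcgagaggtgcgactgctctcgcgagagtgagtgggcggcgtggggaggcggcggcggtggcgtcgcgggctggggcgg
Crem promoter 2: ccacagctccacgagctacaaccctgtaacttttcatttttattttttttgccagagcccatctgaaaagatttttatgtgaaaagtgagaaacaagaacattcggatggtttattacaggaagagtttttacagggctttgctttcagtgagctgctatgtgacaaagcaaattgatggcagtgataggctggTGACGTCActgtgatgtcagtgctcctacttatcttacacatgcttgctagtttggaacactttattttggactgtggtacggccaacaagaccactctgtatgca
Crem promoter 3: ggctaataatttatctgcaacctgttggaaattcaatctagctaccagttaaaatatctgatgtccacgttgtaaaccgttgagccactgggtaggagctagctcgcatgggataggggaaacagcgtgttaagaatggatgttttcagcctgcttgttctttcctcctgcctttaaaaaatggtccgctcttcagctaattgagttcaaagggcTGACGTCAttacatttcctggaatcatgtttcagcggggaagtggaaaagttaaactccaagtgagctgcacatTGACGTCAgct
A match of letters is not evidence of binding, and no data on binding were used here.

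Of the members, only the anchoring protein, Akap11 passed the main test between groups. With edgeR's quasi-likelihood test and Benjamini-Hochberg adjustment over 15032 genes, 1 of the 51 tested members passed an adjusted p of 0.05 in SKF+Aβ compared with SKF, where 312 genes or 2.08% passed. It was Akap11, higher in SKF+Aβ. No member passed in SKF+Aβ+CSP compared with SKF, where 3 genes (0.02%) passed, nor in SKF+Aβ+CSP‐TTK21 compared with SKF, where 1 gene (0.00665%) passed. None passed in the other 5 comparisons, where 0 genes (0%) passed. In the test of any difference among the 5 groups no member passed and 1 gene (0.00665%) did, with Akap11 lowest among members at an edgeR adjusted p of 0.209. DESeq2 called more genes in general. It called 1 member in SKF+Aβ+CSP compared with SKF, beside 4.62% of the genes it gave an adjusted p, and 1 in the test across the 5 groups, beside 4.89% (Akap11 in both). In SKF+Aβ+CSP‐TTK21 compared with SKF it called 2 (Akap11 and Pde1a), beside 4.58%. It called Akap11 alone in SKF+Aβ compared with SKF, beside 8.93%, and no member in the other 5 comparisons, and limma called Akap11 in SKF+Aβ compared with SKF, beside 2.33% of all genes, and no other member.

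At an unadjusted p under 0.05 the members were about as frequent as genes in general, or less. In SKF+Aβ compared with SKF, 7 of 51 members (13.7%) were under that limit, 6 higher and 1 lower, beside 22.8% of all genes. The corresponding count was 10 (19.6%) in SKF+Aβ+CSP compared with SKF, 6 higher and 4 lower, beside 19.3%. In SKF+Aβ+CSP‐TTK21 compared with SKF it was also 10, 6 higher and 4 lower, beside 19.6% of all genes. CSP‐TTK21 alone compared with SKF gave 2 (3.92%), both higher, beside 7.78%. Among the groups that shared SKF and Aβ, adding the empty nanosphere gave 1 member (1.96%) beside 2.18%, CSP‐TTK21 compared with SKF+Aβ gave 3 (5.88%), all lower, beside 6.59%, and CSP‐TTK21 compared with CSP gave 5 (9.8%), 1 higher and 4 lower, beside 8.78%. SKF+Aβ+CSP‐TTK21 compared with CSP‐TTK21 alone gave 0 beside 4.18%, and the test across the 5 groups gave 5 (9.8%) beside 14.3%. The 8 comparisons share libraries, so that these counts are not independent of each other.

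The sizes of the differences were bounded by the fit. The median absolute log2 fold change of the members lay between 0.10 and 0.22 over the 8 comparisons, beside 0.12 to 0.28 for all genes tested. Between replicates of a group the median absolute log2 difference of the members was 0.17 to 0.22. The 95% interval of the fold change lay within 1 log2 unit on either side of 0 for 45 to 48 of the 51 members, beside 65.6 to 75.2% of all genes, and within 0.5 for 16 to 30. The map of members by library shows most rows pale, with Akap10, Akap11, Pde1a and Pde3b darker in the 8 libraries outside the SKF group.

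**Figure D1:**
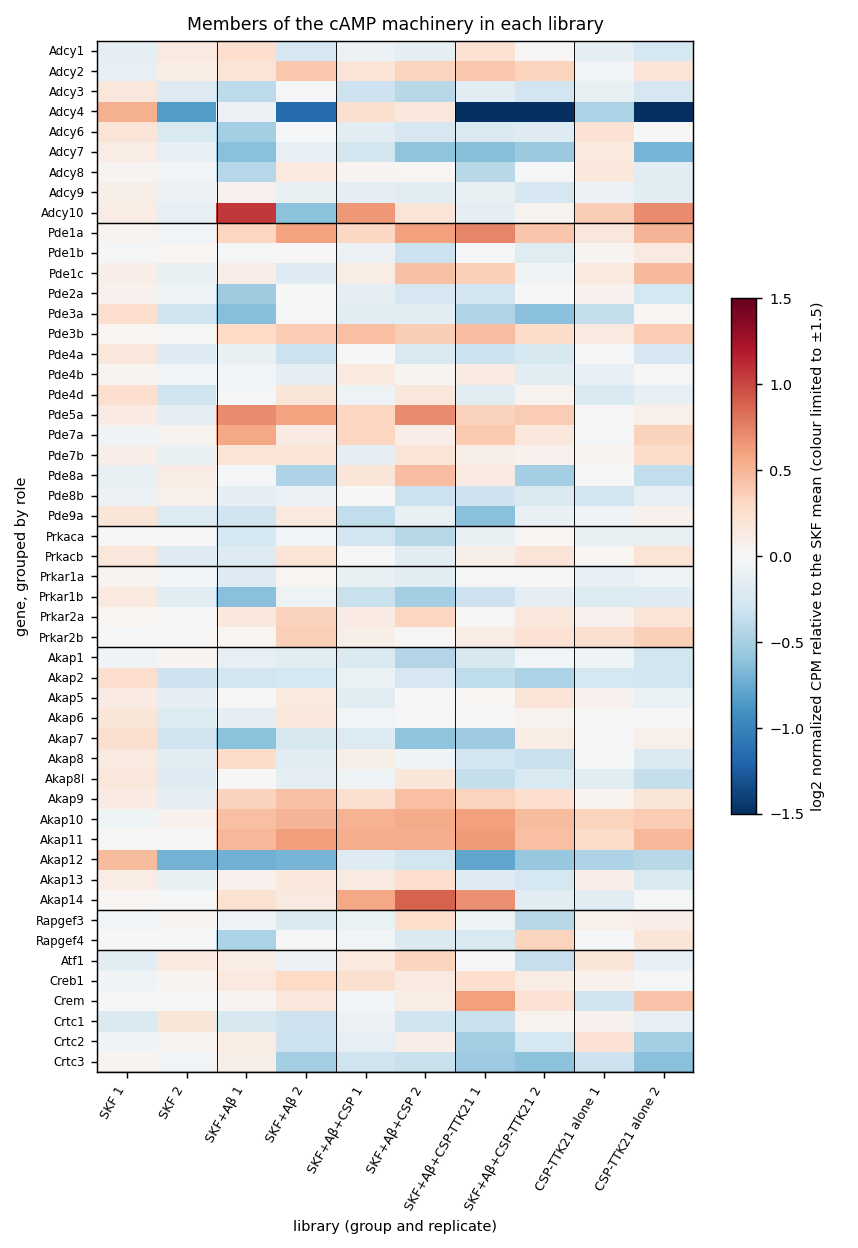
Level of each of the 51 tested members (rows, grouped by role) in each of the 10 libraries (columns), as log2 normalized CPM relative to the mean of the 2 SKF libraries, with colours limited at 1.5 in either direction. Akap10, Akap11, Pde1a and Pde3b were above both SKF libraries in all 8 others, and Adcy4 was lowest in SKF+Aβ+CSP‐TTK21.

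Among the anchoring proteins, Akap11 rose in SKF+Aβ. Akap11 (ENSRNOG00000009987), also known as AKAP220, binds PKA together with protein phosphatase 1 and glycogen synthase kinase 3. It measured 450.5 and 438 normalized CPM in SKF, 625 and 688 with Aβ added, 648 and 647 with Aβ and CSP, 693 and 606 with Aβ and CSP‐TTK21, and 536 and 625 for CSP‐TTK21 alone. Both SKF libraries were below all 8 others, and those of CSP‐TTK21 alone were below both of SKF+Aβ+CSP. In SKF+Aβ the log2 fold change against SKF was 0.56 (SE 0.13, edgeR adjusted p = 0.0444). It was 0.54 with the empty nanosphere, 0.55 with CSP‐TTK21 on Aβ and 0.39 for CSP‐TTK21 alone, with edgeR adjusted p = 0.0808, 0.0982 and 0.633. Adding CSP‐TTK21 to SKF+Aβ gave a log2 fold change of Akap11 of -0.02, with a 95% interval from -0.29 to 0.26.

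The call of Akap11 lay close to the threshold and was lost on leaving out 1 library in 8 of 10 cases. The edgeR adjusted p of Akap11 became 0.142 and 0.0915 without SKF replicate 1 or 2, 0.147 and 0.117 without SKF+Aβ replicate 1 or 2, 0.0866 and 0.0858 without SKF+Aβ+CSP replicate 1 or 2, and 0.0565 and 0.0529 without CSP‐TTK21 alone replicate 1 or 2. It was 0.0474 and 0.049 without SKF+Aβ+CSP‐TTK21 replicate 1 or 2. In a fit of only the 4 libraries compared, the edgeR adjusted p of Akap11 was 0.125. Its log2 fold change stayed between 0.47 and 0.62. Akap11 overlaps an unnamed RefSeq gene in GRCr8, and reads of the pair may not be told apart. In bulk RNA, a larger share of cells with a transcript and more of it per cell cannot be told apart. Of the 13 marker lists, the sum of CA2 neuron markers (4 of 4) also stood apart in the SKF libraries, but was higher there. It was 253 and 255 CPM in SKF beside 201 to 250.5 in the others, with a median log2 fold change of -0.03 in SKF+Aβ. In the comparison that called Akap11, oligodendrocyte markers were lower in SKF+Aβ by their median log2 fold change of -0.63, with 4 of 7 under an unadjusted p of 0.05, and summed to 16560 and 24420 CPM in SKF and 16020 and 11240 in SKF+Aβ. For oligodendrocyte precursor markers (4 of 4) the median was -0.60, with 3 under that limit, and the sums were 213 and 303 CPM in SKF, 185 and 191 in SKF+Aβ and 201 to 270 in the other groups. The part of these lists in the result for Akap11 was not tested.

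Akap10, a dual-specificity anchor that binds both types of regulatory subunit, had a similar order of libraries. Its levels were 31.4 and 34.2 normalized CPM in SKF, 44.8 and 46.8 with Aβ added, 47.1 and 48.1 with Aβ and CSP, 50.1 and 45.6 with Aβ and CSP‐TTK21, and 41.2 and 42.6 for CSP‐TTK21 alone. Both SKF libraries were lowest, and the log2 fold change of Akap10 in SKF+Aβ was 0.48 with a 95% interval from 0.18 to 0.78 (edgeR adjusted p = 0.0763). Akap9, which holds PKA at channels and at the Golgi, measured 241 and 200 CPM in SKF, and 280 and 298 in SKF+Aβ. Its log2 fold change was 0.39 (interval 0.10 to 0.68, edgeR adjusted p = 0.114), and CSP‐TTK21 alone at 229 and 250 CPM overlapped SKF. Over all genes, 9.58% had all 8 other libraries above both SKF libraries and 7.48% had them below. Among the members these counts were 4 and 0, the 4 being Akap10, Akap11, Pde1a and Pde3b.

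**Figure D2:**
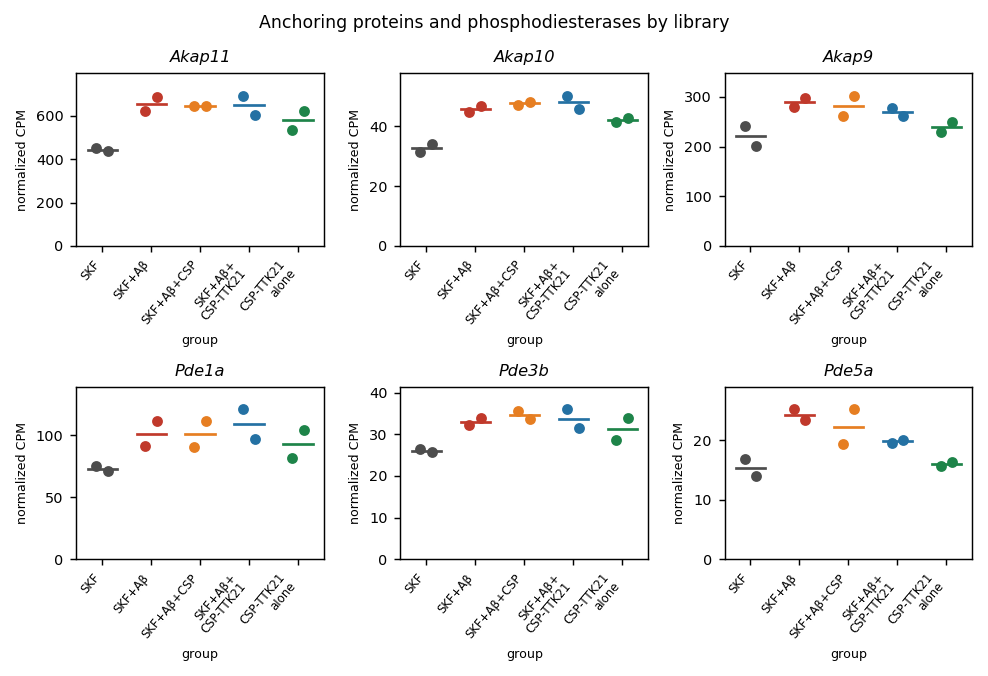
Normalized CPM of 6 members in the 5 groups, with a point for each library and a line at the mean of 2. Akap11 measured 450.5 and 438 in SKF and 536 to 693 elsewhere. Akap10, Pde1a and Pde3b likewise had both SKF libraries lowest, while in Akap9 and Pde5a CSP‐TTK21 alone overlapped SKF.

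Akap12 and Akap2 stood apart in 1 library of the SKF group. Akap12, or gravin, a large anchor that associates with adrenergic receptors, measured 222 CPM in SKF replicate 1 and 97.3 in replicate 2. It was 96.5 and 98.5 with Aβ added, 140 and 132 with Aβ and CSP, 92.8 and 107 with Aβ and CSP‐TTK21, and 116 and 120 for CSP‐TTK21 alone. SKF replicate 1 was above all others and replicate 2 lay within them. The log2 fold change of Akap12 in SKF+Aβ compared with SKF was -0.71 (edgeR adjusted p = 0.131), and it was -0.01 without SKF replicate 1 and -1.19 (edgeR adjusted p = 0.0322) without SKF replicate 2, where Akap12 was the 1 member called beside 1.11% of all genes. Akap2 measured 209 CPM in SKF replicate 1, 142 in replicate 2 and 126.5 to 163 in the other groups.

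Of the other anchoring proteins, Akap6 and Akap5 had no order by group. Akap6, which tethers PKA at the nuclear envelope, was between 481 and 629 CPM, with both extremes in the SKF group. Its log2 fold changes against SKF were -0.03 to 0.03. Akap5, the postsynaptic anchor of PKA, calcineurin and protein kinase C, measured 108.5 to 140 CPM, with log2 fold changes against SKF of -0.08 to 0.11. Akap14 had 6 to 12 counts per library, and its log2 fold change of 0.72 in SKF+Aβ+CSP compared with SKF had a 95% interval from -0.40 to 1.85. Akap1, a mitochondrial anchor, and Akap7, Akap8 and Akap8l gave log2 fold changes between -0.42 and 0.23 over the 8 comparisons, with 0.246 as their lowest edgeR adjusted p.

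With edgeR and the filter on low counts no phosphodiesterase passed the adjusted threshold over all 10 libraries, and 2 of the 15 tested, Pde1a and Pde3b, had all 8 libraries outside SKF above both SKF libraries, an order found in 9.58% of all genes. Pde1a, which calcium and calmodulin activate, was measured at 74.9 and 71.2 CPM in SKF, 91.4 and 111 with Aβ added, 90.3 and 112 with Aβ and CSP, 121 and 97.2 with Aβ and CSP‐TTK21, and 81.9 and 104 for CSP‐TTK21 alone. All 8 libraries outside SKF were higher. The log2 fold changes of Pde1a were 0.47, 0.47, 0.58 and 0.35, and the lowest edgeR adjusted p was 0.127, in SKF+Aβ+CSP‐TTK21. Pde3b, which cGMP inhibits, was 26.5 and 25.6 CPM in SKF and 28.7 to 36.0 elsewhere. Its log2 fold changes were 0.34, 0.41, 0.37 and 0.26.

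Pde5a had the highest fold change of the members in SKF+Aβ. This enzyme hydrolyses cGMP rather than cAMP and was a member by its symbol. Levels of Pde5a were 16.9 and 14.0 CPM in SKF, 25.3 and 23.4 with Aβ added, 19.4 and 25.2 with Aβ and CSP, 19.6 and 20.1 with Aβ and CSP‐TTK21, and 15.6 and 16.3 for CSP‐TTK21 alone. The 6 libraries with Aβ were all above the 4 without it, an order that 4 of the 51 members had (Akap9, Akap10, Creb1 and Pde5a), or 7.84%, beside 3.23% of all genes. The opposite order was found in 0 members, beside 1.46% of all genes. The log2 fold change of Pde5a was 0.66 (interval 0.26 to 1.06, edgeR adjusted p = 0.0724) in SKF+Aβ and 0.05 (interval -0.36 to 0.46) in CSP‐TTK21 alone. SKF+Aβ+CSP‐TTK21 compared with CSP‐TTK21 alone, which differ by SKF and Aβ together, gave 0.31 (interval -0.09 to 0.71).

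Pde2a, stimulated by cGMP and the phosphodiesterase with the most counts, measured 265 to 400.5 CPM without an order by group. Its log2 fold changes against SKF were -0.24 to -0.09. Pde3a, with the fewest counts among those tested, was 15.2 and 10.4 CPM in SKF and 8.24 to 13.1 in the others. The rolipram-sensitive family, Pde4a, Pde4b and Pde4d, gave log2 fold changes between -0.28 and 0.10 against SKF, none under an unadjusted p of 0.05. Pde8a was the only member under that limit when the empty nanosphere was added to SKF+Aβ. It measured 33.2 and 24.3 CPM in SKF+Aβ and 37.9 and 46.2 in SKF+Aβ+CSP, with a log2 fold change of 0.54 (edgeR adjusted p = 0.9997). Pde1b, Pde1c, Pde7a, Pde7b, Pde8b and Pde9a gave log2 fold changes between -0.35 and 0.37 over the 8 comparisons, with 0.302 as their lowest edgeR adjusted p.

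**Figure D3:**
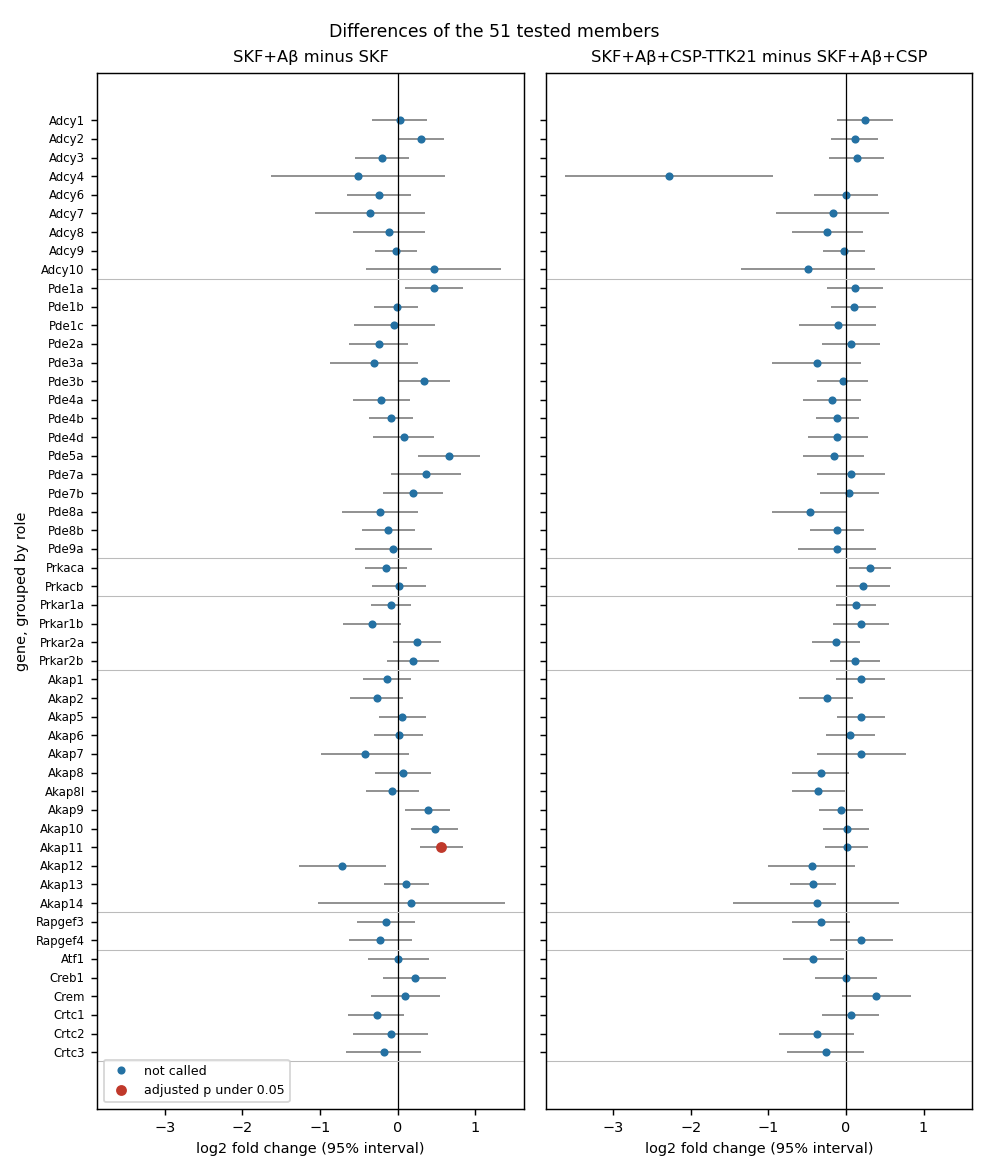
Log2 fold change (points) with its 95% interval (lines) for the 51 tested members, for SKF+Aβ minus SKF (left) and for SKF+Aβ+CSP‐TTK21 minus SKF+Aβ+CSP (right). On the left Akap11 at 0.56 passed the adjusted threshold, and on the right no member passed, Adcy4 at -2.28 being the farthest from 0.

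With edgeR over all 10 libraries and with the filter on low counts, no cyclase passed the adjusted threshold in any of the 8 comparisons. Adcy1, the calcium-stimulated cyclase of the forebrain and the cyclase with the most counts, was 524 and 638 CPM in SKF and 485 to 693 elsewhere, and its log2 fold changes against SKF were between -0.21 and 0.13. Adcy2 measured 109 and 129 CPM in SKF and 158 and 150 in SKF+Aβ+CSP‐TTK21, a log2 fold change of 0.37 (interval 0.07 to 0.67, edgeR adjusted p = 0.183). Adcy10, the soluble cyclase that bicarbonate activates, spread widely in SKF+Aβ, with 15.2 and 4.77 CPM beside 7.88 and 6.68 in SKF. It was 11.5 and 8.36 CPM with Aβ and CSP and 6.65 and 7.56 with Aβ and CSP‐TTK21. CSP‐TTK21 alone gave 9.43 and 11.9 CPM, and its log2 fold change against SKF, 0.55, was the highest of the members there. The lowest edgeR adjusted p of Adcy10 over the 8 comparisons was 0.511. Adcy7 was 7.74 and 6.54 CPM in SKF and 4.41 to 7.88 in the others. Its log2 fold change of -0.42 in SKF+Aβ+CSP compared with SKF was the lowest of the members there. Adcy3, Adcy6, Adcy8 and Adcy9 gave log2 fold changes between -0.36 and 0.15 over the 8 comparisons, with 0.254 as their lowest edgeR adjusted p.

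Adcy4, a cyclase described in vascular endothelium, gave the lowest values in SKF+Aβ+CSP‐TTK21. Adcy4 (ENSRNOG00000020401) had 10 and 5 counts there, or 1.28 and 0.713 CPM. It measured 6.22 and 2.40 CPM in SKF, 4.05 and 1.94 with Aβ added, 5.08 and 4.84 with Aβ and CSP, and 3.10 and 1.34 for CSP‐TTK21 alone. The libraries of SKF+Aβ+CSP‐TTK21 were the lowest of all, and the next, CSP‐TTK21 alone replicate 2, was close to the higher of them. For Adcy4 the log2 fold change was -2.28 (SE 0.59, edgeR adjusted p = 0.510) compared with SKF+Aβ+CSP, -2.08 (edgeR adjusted p = 0.124) compared with SKF and -1.56 (edgeR adjusted p = 0.746) compared with SKF+Aβ. Leaving out 1 library moved the log2 fold change of Adcy4 compared with SKF between -2.60 (edgeR adjusted p = 0.0397, without SKF replicate 2, where 2.14% of all genes were called) and -1.26 (edgeR adjusted p = 0.578, without SKF replicate 1). Compared with SKF+Aβ it lay between -2.05 (without SKF+Aβ+CSP‐TTK21 replicate 1) and -0.93 (edgeR adjusted p = 0.999, without SKF+Aβ replicate 1), and compared with SKF+Aβ+CSP between -2.77 and -1.95. With no filter on low counts, edgeR called Adcy4 compared with SKF (-2.09, adjusted p = 0.000958, beside 3.57% of all genes called) and with SKF+Aβ+CSP (-2.27, adjusted p = 0.000189, beside 1.22%).

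Endothelial markers were set beside Adcy4. The sum of the matched endothelial markers (4 of 5, with Cldn5 at 0 in every library) was 49.6 and 48.2 CPM with Aβ and CSP‐TTK21, 86.1 and 59.7 in SKF, 80.04 and 68.7 with Aβ, 104 and 80.03 with Aβ and CSP, and 67.4 and 64.0 for CSP‐TTK21 alone. The sum was lowest in the group where Adcy4 was lowest. Flt1, the endothelial marker with the most counts, had 276 and 240 counts there and 691 and 414 in SKF+Aβ+CSP. Mural markers (6 of 6) summed to 64.7 and 63.3 CPM in SKF+Aβ+CSP‐TTK21 and to between 62.0 and 93.2 in the other groups. The part of vascular cells in the values of Adcy4 was not tested. Akap13, another anchoring protein, measured 285 and 272 CPM in SKF+Aβ+CSP‐TTK21 beside 358 and 388 with the empty nanosphere. Its log2 fold change was -0.42 (interval -0.72 to -0.13, edgeR adjusted p = 0.523).

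**Figure D4:**
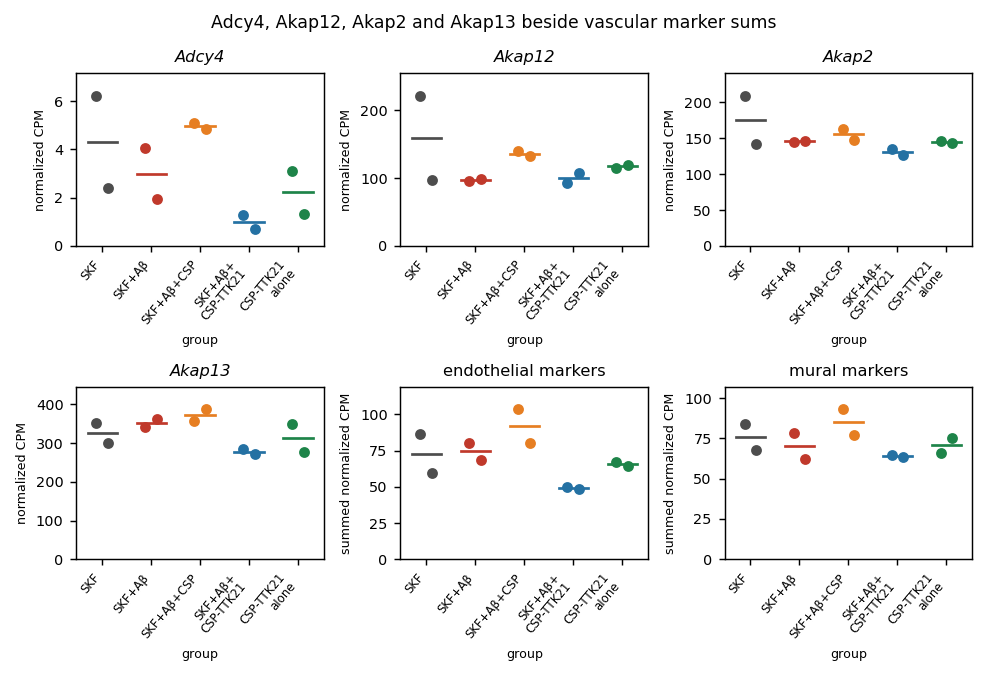
Normalized CPM of Adcy4, Akap12, Akap2 and Akap13 and summed CPM of endothelial and mural markers in the 5 groups, with a point for each library and a line at the mean of 2. Adcy4 and the endothelial sum were both lowest in SKF+Aβ+CSP‐TTK21, and Akap12 and Akap2 were highest in a single library, SKF replicate 1.

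No subunit of PKA passed the adjusted threshold with edgeR. Prkaca, the alpha catalytic subunit, measured 193 and 194 CPM in SKF, 161 and 188 with Aβ added, 158 and 145 with Aβ and CSP, 179 and 198 with Aβ and CSP‐TTK21, and 179 and 179 for CSP‐TTK21 alone. SKF+Aβ+CSP was lowest in both libraries. Prkaca gave a log2 fold change of -0.35 (interval -0.62 to -0.08, edgeR adjusted p = 0.169) in SKF+Aβ+CSP compared with SKF, and 0.31 (interval 0.04 to 0.58, edgeR adjusted p = 0.556) in SKF+Aβ+CSP‐TTK21 compared with SKF+Aβ+CSP. Prkacb, the beta catalytic subunit, was 152 to 201 CPM with no order by group, and its log2 fold changes in the 8 comparisons were between -0.10 and 0.22.

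Of the regulatory subunits, Prkar1a had the most counts and Prkar2b the fewest. Prkar1a measured 350.5 to 412.5 CPM, with log2 fold changes against SKF between -0.13 and 0.00. Prkar1b, the neuronal type I subunit, was 263 and 212 CPM in SKF and 154 to 225 in the others, and its log2 fold change in SKF+Aβ+CSP was -0.42 (interval -0.79 to -0.05, edgeR adjusted p = 0.207). Prkar2a measured 50.7 and 49.0 CPM in SKF and 50.5 to 63.2 elsewhere, and Prkar2b 34.8 and 35.9 in SKF and 35.8 to 45.4 elsewhere. Of all counts of regulatory subunits, the type II subunits took 11.2 and 12.4% in SKF and 13.2 to 15.7% in the 8 other libraries. The ratio of catalytic to regulatory counts was 0.512 and 0.504 in SKF and 0.481 to 0.554 elsewhere. These ratios were computed after the single genes had been seen and are not corrected for transcript length, so that they can be compared only between libraries.

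In the CREB family, Crem was highest in SKF+Aβ+CSP‐TTK21 by its mean. Crem, which encodes cAMP-responsive activators and repressors and whose promoters are printed above, measured 75.4 and 57.5 CPM there, 49.2 and 49.7 in SKF, 50.7 and 55.4 with Aβ added, 48.1 and 53.2 with Aβ and CSP, and 40.2 and 66.4 for CSP‐TTK21 alone. Both libraries of SKF+Aβ+CSP‐TTK21 were above those of the 3 other groups with SKF, while CSP‐TTK21 alone held both the lowest library and 1 of the highest. The log2 fold change of Crem compared with SKF+Aβ+CSP was 0.39 (interval -0.05 to 0.84, edgeR adjusted p = 0.582) and that compared with SKF+Aβ was 0.33 (interval -0.12 to 0.77). These fold changes of Crem became 0.19 and 0.12 without SKF+Aβ+CSP‐TTK21 replicate 1 and 0.57 and 0.50 without its replicate 2.

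Creb1 itself measured 11.8 and 12.6 CPM in SKF, 13.4 and 14.9 with Aβ added, 14.3 and 13.3 with Aβ and CSP, 14.4 and 13.1 with Aβ and CSP‐TTK21, and 12.7 and 12.03 for CSP‐TTK21 alone. Its log2 fold changes in the 8 comparisons were between -0.04 and 0.22, and the interval in SKF+Aβ compared with SKF was -0.19 to 0.63. Atf1, the close relative of CREB, was 34.1 and 39.0 CPM in SKF+Aβ+CSP and 30.2 and 24.4 in SKF+Aβ+CSP‐TTK21, a log2 fold change of -0.42 (edgeR adjusted p = 0.564). Crtc1, the coactivator that neuronal activity moves to the nucleus, was 67.2 to 96.4 CPM, with log2 fold changes against SKF between -0.27 and -0.03. Crtc2, the coactivator known from liver gluconeogenesis, was 26.6 to 44.3 CPM, with log2 fold changes between -0.39 and 0.08 in the 8 comparisons. Crtc3, with the fewest counts in this class, was 16.2 and 15.2 CPM in SKF and 10.7 and 10.3 in SKF+Aβ+CSP‐TTK21, a log2 fold change of -0.58 (interval -1.06 to -0.09, edgeR adjusted p = 0.191).

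**Figure D5:**
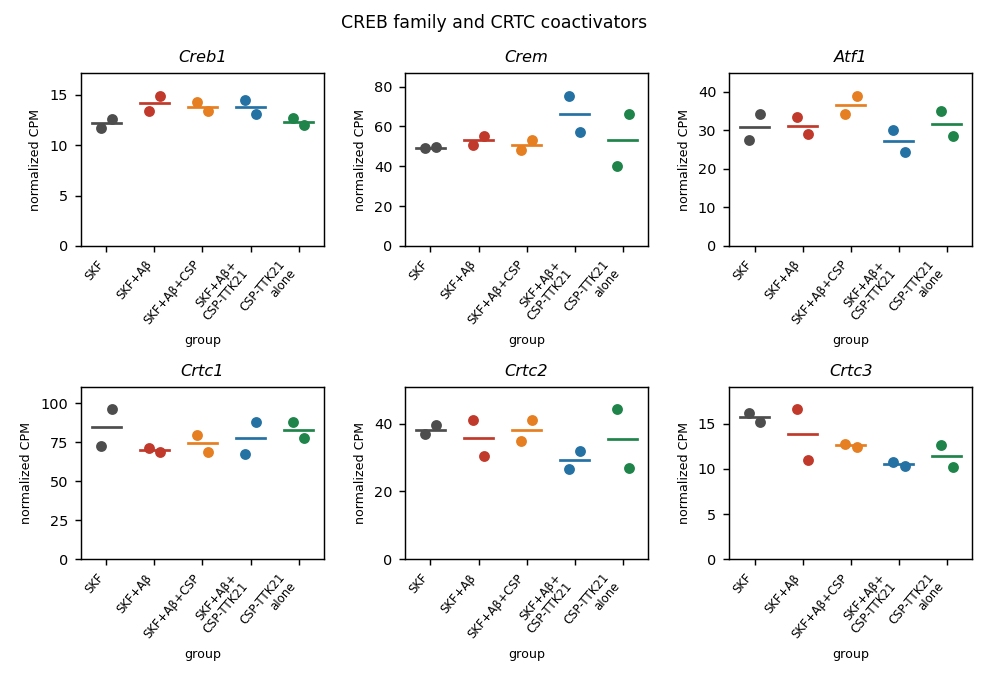
Normalized CPM of Creb1, Crem, Atf1 and Crtc1 to Crtc3 in the 5 groups, with a point for each library and a line at the mean of 2. Crem reached 75.4 and 57.5 in SKF+Aβ+CSP‐TTK21, and no gene of this family passed the adjusted threshold in any comparison.

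The Epac proteins, exchange factors for Rap that cAMP activates directly, did not pass the adjusted threshold with edgeR in any comparison. Rapgef4 (Epac2) measured 339 to 593 CPM, with the lowest value in SKF+Aβ replicate 1 and the highest in SKF+Aβ+CSP‐TTK21 replicate 2, and its log2 fold changes in the 8 comparisons were between -0.22 and 0.29. Rapgef3 (Epac1) measured 28.5 to 45.9 CPM, with log2 fold changes between -0.32 and 0.24.

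The genes around these members were listed as 50 partners of the pathway, among them receptors, G proteins, PKA inhibitors, acetyltransferases and Rap, of which 49 were tested (Gnas, with 2 rows in the table, was left out). The list was written with earlier results of these data known. In SKF+Aβ compared with SKF 1 of the 49 (2.04%, beside 2.08% of all genes) passed edgeR's adjusted threshold, lower, and the same number passed in SKF+Aβ+CSP compared with SKF (beside 0.02%). Both were Ppp1r1b, the protein phosphatase 1 inhibitor DARPP-32 that PKA phosphorylates downstream of D1 receptors. Ppp1r1b measured 75.6 and 77.7 CPM in SKF, 36.9 and 37.4 with Aβ added, 40.8 and 33.0 with Aβ and CSP, 49.7 and 59.0 with Aβ and CSP‐TTK21, and 56.1 and 59.5 for CSP‐TTK21 alone. Its log2 fold change was -1.05 in both comparisons, with edgeR adjusted p = 0.0230 and 0.0387. The call of Ppp1r1b in SKF+Aβ was lost in 3 of 10 fits that each left out 1 library (SKF replicate 1 or either SKF+Aβ library, edgeR adjusted p = 0.0503 to 0.147), and that in SKF+Aβ+CSP was lost in 8, all but those without SKF+Aβ+CSP‐TTK21 replicate 1 or 2 (edgeR adjusted p of up to 0.732). Over the 10 fits the log2 fold change of Ppp1r1b was -1.08 to -1.03 in SKF+Aβ and -1.23 to -0.92 in SKF+Aβ+CSP. No partner passed in the other 6 comparisons or in the test across the 5 groups. At an unadjusted p under 0.05 there were 10 partners (20.4%, beside 22.8% of all genes) in SKF+Aβ compared with SKF, 10 (beside 19.3%) in SKF+Aβ+CSP, 14 (28.6%, beside 19.6%) in SKF+Aβ+CSP‐TTK21 and 5 (10.2%, beside 7.78%) in CSP‐TTK21 alone. In the 4 comparisons without the SKF group the partners made up 0 to 8.16% beside 2.18 to 8.78%. The test across the 5 groups gave 9 partners (18.4%, beside 14.3%). The median log2 fold change of the partners was between -0.07 and 0.03 in the 8 comparisons, beside -0.01 to 0.01 for all genes.

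The receptors that SKF activates had few counts. Drd1 had 12 and 20 counts in SKF and 22 to 36 in the other groups, and its log2 fold change of 1.01 in CSP‐TTK21 alone had a 95% interval from 0.23 to 1.79 (edgeR adjusted p = 0.633). Drd5 had 22 and 28 counts in SKF, 7 and 16 in SKF+Aβ, and 11 to 28 in the others. The acetyltransferases that TTK21 activates did not pass the adjusted threshold with edgeR. Crebbp measured 273 to 307 CPM, with log2 fold changes between -0.10 and 0.13 in the 8 comparisons, and Ep300 60.7 to 74.9 CPM, with log2 fold changes between -0.09 and 0.12. Pkia, an inhibitor of the PKA catalytic subunits, was 55.3 and 76.0 CPM in SKF and 82.4 to 119 in all 8 other libraries. Pkia gave a log2 fold change of 0.66 in SKF+Aβ (interval 0.30 to 1.03, edgeR adjusted p = 0.0584) and 0.70 in SKF+Aβ+CSP‐TTK21 (edgeR adjusted p = 0.103).

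Transcripts that CREB is known to induce were listed as 24 genes, of which 22 were tested, Vgf and Ier2 having no match by symbol. This list too was written with earlier results of these data known. In SKF+Aβ compared with SKF 2 of 22 (9.09%, beside 2.08% of all genes) passed edgeR's adjusted threshold. Pcsk1, a prohormone convertase, rose from 26.0 and 26.2 CPM in SKF to 46.2 and 40.1 in SKF+Aβ, a log2 fold change of 0.73 (edgeR adjusted p = 0.0450). Gadd45b, a stress-inducible gene linked to DNA demethylation, fell from 136 and 132 CPM to 87.2 and 74.5, a log2 fold change of -0.73 (edgeR adjusted p = 0.0422). Leaving out 1 library ended the call of Pcsk1 in 9 of 10 fits, all but that without SKF+Aβ+CSP‐TTK21 replicate 1 (edgeR adjusted p of up to 0.201), and the call of Gadd45b in 6, those without a library of SKF, SKF+Aβ or SKF+Aβ+CSP (up to 0.147). Over the 10 fits the log2 fold change stayed between 0.60 and 0.81 for Pcsk1 and between -0.86 and -0.64 for Gadd45b. With only the 4 libraries compared, the edgeR adjusted p was 0.103 for Pcsk1 and 0.088 for Gadd45b. None of the 22 passed with edgeR in the other 7 comparisons or in the test across the 5 groups. At an unadjusted p under 0.05 there were 4 targets (18.2%, beside 22.8% of all genes) in SKF+Aβ compared with SKF, 7 (31.8%, beside 19.3%) in SKF+Aβ+CSP and 5 (22.7%, beside 19.6%) in SKF+Aβ+CSP‐TTK21. Adding the empty nanosphere or CSP‐TTK21 to SKF+Aβ gave 0 (beside 2.18 and 6.59%), and CSP‐TTK21 compared with CSP gave 1 (4.55%, beside 8.78%). The test across the 5 groups gave 10 targets (45.5%, beside 14.3%).

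In CSP‐TTK21 alone compared with SKF, 14 of the 22 CREB targets were under an unadjusted p of 0.05, beside 7.78% of all genes. The 22 were listed with earlier results of these data known. Their median log2 fold change was -0.75 (0.00 for all genes), and none passed the adjusted threshold. Fos, an immediate early gene with cAMP response elements, measured 489 and 599 CPM in SKF, 190 and 473 with Aβ added, 308 and 323 with Aβ and CSP, 427 and 528 with Aβ and CSP‐TTK21, and 288 and 200 for CSP‐TTK21 alone. Both libraries of CSP‐TTK21 alone were below both of SKF, with a log2 fold change of -1.16 (edgeR adjusted p = 0.633). In SKF+Aβ+CSP‐TTK21 compared with CSP‐TTK21 alone, 9 of the 22 were under an unadjusted p of 0.05 beside 4.18% of all genes, with a median log2 fold change of 0.46, and Fos gave 0.97 (interval 0.32 to 1.62, edgeR adjusted p = 0.963). The first of these comparisons differs by SKF and by CSP‐TTK21 and the second by SKF and Aβ, so that the agents of each pair cannot be told apart. The members of the machinery itself had a median log2 fold change of -0.01 and -0.04 in these 2 comparisons.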

How the data were processed

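RNA-seq counts of 10 libraries, 2 in each of 5 groups taken from the sample titles, were analysed. As deposited, the values are whole-number read counts for each rat Ensembl gene and library, which the authors had neither normalized nor pooled. Their methods describe ribosomal depletion with a stranded kit, trimming, removal of duplicates and alignment with TopHat2 before Cufflinks, whereas the submitters' processing notes list STAR, HISAT2, RSEM and Salmon. The genomes named also differ: the methods index a rat genome but give a mouse assembly for the alignment, and the processing notes give a human build, while the gene identifiers are those of rat. The program, genome, annotation and strand setting behind the counts are not given in the sources used here, so genes that overlap another (35 of the 54 members overlap a RefSeq gene in GRCr8, on either strand) are uncertain.

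Analysis was run with edgeR 4.0.16 under R 4.3.3. Low counts were removed with filterByExpr by group (15032 kept of 32545), and the rest were normalized with TMM factors and fitted with a mean per group over all 10 libraries, without covariates. The common biological coefficient of variation was 0.136. Levels are CPM on the TMM-scaled library size. A gene was called at a quasi-likelihood adjusted p under 0.05 over all genes tested, in 8 pairwise comparisons and in 1 test across the 5 groups. The fold change limit in the study's RNA-seq methods, log2 1.5, was kept as an alternative. Other alternatives used the replicate block, only the libraries compared, DESeq2 1.42.0, limma 3.58.1 on log2 CPM with a prior count of 2, RLE factors, no filter on low counts, 10 or more counts required of each library, and leaving out each library in turn. The scripts were tested on simulated counts.

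The members and the lists of partners, targets and cell type markers were chosen with earlier results of these data known. The genes named by rule are the members called, the 3 with the lowest p across groups and the extremes of each comparison. To these were added the members of highest and lowest mean level in each role, and the listed partners or targets called. Drd1, Drd5, Crebbp, Ep300, Pkia and Fos were also named by rule. Some of these genes are given as ranges or for some groups only. Other members, among them Akap2, Akap9, Pde3b, Pde8a, Akap13, Adcy2, Atf1, Creb1 and Prkar1b, were named after their values were seen. Each repeat held slices of 2 animals, and p-values measure the spread between these libraries. The variance between replicates of a group was 4.73 to 12.1 times that of counting error (chi-square per degree of freedom). No library was counted as a repeat of another, though this ratio cannot tell differences between animals from those of library preparation. No transcript lengths were used, so rankings of genes by counts or mean level are not corrected for length. Levels were not otherwise compared between genes.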

Additional observations from a re-analysis of the deposited data

How the results depend on the processing

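The number of members called in SKF+Aβ compared with SKF was 1, and it became 0 in a fit of only the 4 libraries compared, 0 with the fold change limit and 2 (Akap11, Akap12, beside 5.19% of all genes) with no filter on low counts; leaving out each library gave 0 to 1. Against SKF, DESeq2 called 1 member in SKF+Aβ+CSP (Akap11, beside 4.62% of the genes it gave an adjusted p) and 2 in SKF+Aβ+CSP‐TTK21 (Akap11, Pde1a, beside 4.58%). In the test across the groups it called 1 (Akap11, beside 4.89%). With no filter these counts were 1 (Akap11), 4 (Adcy4, Akap11, Akap12, Pde1a) and 3 (Adcy4, Akap11, Akap12), beside 2.99, 3.57 and 5.55% of all genes, and 1 (Adcy4, beside 1.22%) in SKF+Aβ+CSP‐TTK21 compared with SKF+Aβ+CSP. Leaving out each library gave 0 to 3 in SKF+Aβ+CSP‐TTK21 compared with SKF (without SKF replicate 2: Adcy4, Akap12 and Akap2, beside 2.14% of all genes) and 0 to 1 in the test across groups (Akap12, likewise without SKF replicate 2). The causes of these shifts were not tested. RLE factors, limma and the minimum of 10 counts changed no count of members called.

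On leaving out 1 library, as few as 33 of the 51 tested members kept their direction in a comparison (SKF+Aβ+CSP compared with SKF+Aβ, without SKF+Aβ replicate 2), and a member moved by up to 1.09 log2 units. Under the other settings at least 47 of the 49 to 51 members compared kept it, with moves of up to 0.32. The 48 pairs of a member and a comparison with an unadjusted p under 0.05 or an extreme value were chosen from these same counts. Most alternatives kept every library of the groups compared, so that the direction of these pairs was largely fixed in advance. Of their 806 alternative values 804 kept it. The 2 exceptions were Akap12 in SKF+Aβ+CSP‐TTK21 compared with SKF (-1.14 to 0.02, the highest without SKF replicate 1) and Akap14 in SKF+Aβ+CSP‐TTK21 compared with CSP‐TTK21 alone (-0.06 to 0.76, the lowest without SKF+Aβ+CSP‐TTK21 replicate 1). No alternative moved the median of all genes by more than 0.04 log2 units.

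With the replicate number as a block, SKF+Aβ compared with SKF gave 1 member (Akap11, edgeR adjusted p = 0.0457), and the replicate block changed no other count of members called. Genes called over all genes in that comparison went from 312 to 425. Deviations of libraries with the same number correlated between -0.0691 and 0.237 across genes, with 2 pairs in each comparison, so the numbers were not taken to pair the libraries. At 2 libraries a group, Adcy4 and Akap14, with under 50 counts in every library, carried intervals wider than 2 log2 units. The same settings were run, by a choice made after seeing the data, for the partner and targets that were called; in a fit of only the 4 libraries compared, Ppp1r1b was called in SKF+Aβ (edgeR adjusted p = 0.0449) but not in SKF+Aβ+CSP (0.0818).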
